A study of Sus scrofa with 19 samples.

Results

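Complement is a set of plasma and tissue proteins that mark particles and damaged cells for removal. The classical pathway starts when C1q binds its target, the protease C1r activates the protease C1s, and C1s cuts C4 and C2. The alternative pathway amplifies the response through factor B and factor D. Both pathways cut the central component C3, after which C5 to C9 can assemble a pore in the membrane. The liver makes most of the circulating proteins, while fibroblasts, macrophages, endothelium and fat cells also make several of them within tissues such as the heart.

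Described here are the complement genes C1R, C1S, C2, C3, C7, CFB, CFD, CFI and SERPING1, 9 genes listed by symbol. Of the 9, 7 were found by symbol in the authors' gene table and, through its Ensembl identifiers, in the count files, which hold 25879 genes. All 7 passed the filter on low counts, as did 13552 genes in all. The symbols C1R and C1S are not in the authors' table, and the identifiers that the gene name table gives for them are not in the count files, so that these genes were not analysed here.

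Bulk RNA-seq was performed on left ventricular (LV) myocardium of 19 pigs, labelled as female large whites, with 1 library per pig. The 5 DOX pigs received doxorubicin, a cytostatic anthracycline, and the 5 MYO pigs its liposomal form Myocet, each at 60 mg/m2 in 3 cycles, and their anterior wall was sampled at a follow-up of 3 months, when poor health ended these experiments early. In the 3 RemoLV pigs a balloon occluded the left anterior descending artery for 90 min before reperfusion, and the remote posterior wall was sampled after 6 months. In the 3 Hyper pigs the aortic isthmus was narrowed, and in these and the 3 Control pigs the anterior wall was sampled after 6 months. The labels call the Control pigs sham-operated, whereas the methods call them untreated. The DOX and MYO samples come from an earlier study, so that the series of libraries and the drug treatment cannot be told apart, nor can follow-up time.

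The names of the libraries conflict between the deposits. By rank, all 19 expression columns in the authors' table could be tied to a single count file (Spearman correlation 1, next highest 0.992), yet for 8 of them the 2 sources name different groups. The table gives the name Control to the 3 libraries labelled RemoLV and the name RemoLV to the 3 libraries labelled Control, and it exchanges DOX 5 with MYO 1. Groups were taken from the sample labels, and the tests of the 7 genes, and the counts of other complement genes called, were also computed with the names in the table. Marker levels are given by sample label only. Comparisons of DOX and MYO with Hyper do not involve the exchange of RemoLV and Control, and the libraries labelled RemoLV are the same libraries whichever name they carry. These 3 libraries also go against their labelled tissue. The ventricular light chain MYL2 was between 18.6 and 115 CPM (counts scaled per library size) in them and at least 8975 CPM in each of the other 16 libraries, and the atrial light chain MYL4 was between 6029 and 8130 CPM against at most 21.9. Genes of the Y chromosome summed to between 151.8 and 226 CPM in the 10 DOX and MYO libraries and to at most 0.206 CPM in the other 9, although all pigs are labelled female. Wherever DOX or MYO is compared with RemoLV, Hyper or Control, drug treatment cannot be told apart from sex as read from this RNA. Library totals were between 9527710 and 20370209 counts.

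On the Sscrofa11.1 build, in the RefSeq annotation, the adjacent genes C2 (chr7:24020590-24034042) and CFB (chr7:24034077-24040523) lie on the forward strand of the region of the major histocompatibility complex, with 34 bases between them. C3 (chr2:72431470-72471622, forward strand), CFD (chr2:77509792-77511988, reverse strand) and SERPING1 (chr2:13324160-13338826, reverse strand) share a chromosome. C7 (chr16:25846860-25902707) and CFI (chr8:112430824-112470844) lie on forward strands, and the record of C7 is marked as partial. The 250 bases before the annotated gene start are shown for C2, SERPING1, C3 and CFD, because these 4 genes were higher together in the libraries labelled RemoLV. They were read from RefSeq's Sscrofa11.1 at chr7:24020340-24020589 for C2, chr2:13338827-13339076 for SERPING1, chr2:72431220-72431469 for C3 and chr2:77511989-77512238 for CFD, each 5′ to 3′ on the strand of its gene. Capitals mark matches to the 4 motifs named after the sequences.
C2: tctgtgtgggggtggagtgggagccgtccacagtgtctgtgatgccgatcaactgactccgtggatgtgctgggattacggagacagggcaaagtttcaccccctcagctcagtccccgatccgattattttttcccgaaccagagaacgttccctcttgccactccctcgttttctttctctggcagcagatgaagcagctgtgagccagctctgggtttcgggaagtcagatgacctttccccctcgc
SERPING1: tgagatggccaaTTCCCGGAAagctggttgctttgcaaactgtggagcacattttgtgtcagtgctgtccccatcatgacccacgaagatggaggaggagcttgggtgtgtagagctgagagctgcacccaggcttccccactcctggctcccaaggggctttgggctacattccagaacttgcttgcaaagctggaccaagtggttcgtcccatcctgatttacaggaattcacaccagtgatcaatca
C3: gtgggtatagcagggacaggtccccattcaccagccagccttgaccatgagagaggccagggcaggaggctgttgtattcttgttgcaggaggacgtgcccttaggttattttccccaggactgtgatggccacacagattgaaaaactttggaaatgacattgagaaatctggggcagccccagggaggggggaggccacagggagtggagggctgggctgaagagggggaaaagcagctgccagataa
CFD: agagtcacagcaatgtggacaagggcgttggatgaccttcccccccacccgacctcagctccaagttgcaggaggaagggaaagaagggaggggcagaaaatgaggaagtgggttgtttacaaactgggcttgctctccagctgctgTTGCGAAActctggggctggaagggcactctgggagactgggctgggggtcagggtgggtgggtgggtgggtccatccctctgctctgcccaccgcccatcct
Each motif was searched on both strands, overlaps included, in these windows, in those of C7, CFB and CFI, and in 19545 windows of protein-coding genes. TTCNNNGAA, the interferon-gamma-activated site, was found before SERPING1 and in 6.11% of all windows. TTGCNNAA, part of the C/EBP consensus, was found before CFD and in 8.22% of all windows. GAAANNGAA, the core of the interferon-stimulated response element, was found before C7 and CFI and in 6.69% of all windows, and GGANNTTCC, part of the NF-kB consensus, before CFB and in 7.62%. All but the last 34 bases of the window of CFB lie within C2. No match to any of the 4 was found in the windows of C2 and C3, and no motif was found before more than 1 of the 4 genes shown.

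Levels are given in CPM on library sizes scaled with the TMM method of edgeR. To compare genes with each other, CPM were divided by the length of the RefSeq exons. On that scale SERPING1, the inhibitor of C1r and C1s, was highest, with a median of 58.0 CPM per kb over the 19 libraries and a range of 44.9 to 148. It was followed by CFD at 39.1 (18.9 to 90.9) and C3 at 16.5 (4.14 to 73.9). CFI at 1.64 (0.391 to 3.26) and C2 at 1.51 (0.427 to 3.67) were lower, and CFB at 0.203 (0 to 0.991) was lowest. The ranges of neighbours in this order overlap at each step except that from C3 to CFI. C7 was left out of this order because its record is partial.

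C2 encodes the classical pathway protease that C1s cuts. It was at 4.40, 2.49 and 2.26 CPM in Control 1 to 3 and at 1.10, 1.66 and 1.27 CPM in Hyper 1 to 3. It was at 4.31, 2.71, 5.93, 6.60 and 5.21 CPM in DOX 1 to 5 and at 3.88, 3.67, 3.74, 3.20 and 3.89 CPM in MYO 1 to 5. The libraries labelled RemoLV held 7.18, 6.15 and 9.45 CPM. Hyper lay below all other libraries without overlap, RemoLV overlapped only DOX, and MYO lay between them, within the range of DOX. These levels rest on 16 to 109 counts per library.

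C3, the component on which the pathways meet, was at 146, 42.0 and 68.1 CPM in Control and at 86.4, 21.8 and 34.4 CPM in Hyper. It was at 128, 88.5, 93.3, 183 and 38.0 CPM in DOX and at 97.0, 50.02, 29.1, 41.5 and 69.0 CPM in MYO. In RemoLV it was at 217, 167 and 388 CPM. Control, DOX, MYO and Hyper overlapped, and of these 16 libraries only DOX 4 reached into the range of RemoLV. C7, a component of the membrane pore, was at 27.7, 44.3 and 10.9 CPM in Control, at 27.6, 6.10 and 10.5 CPM in Hyper and at 54.8, 29.8 and 94.0 CPM in RemoLV. It was at 51.1, 34.9, 24.3, 63.1 and 31.7 CPM in DOX and at 32.5, 10.9, 21.2, 39.8 and 24.2 CPM in MYO. For C7 only RemoLV and Hyper did not overlap. RemoLV 1 lay within the range of DOX, RemoLV 2 within those of Control, DOX and MYO, and RemoLV 3 above all other libraries.

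Of the alternative pathway genes, CFD encodes factor D, the protease that cuts factor B, and is known as adipsin for its expression in fat. CFD was at 41.8, 51.9 and 21.5 CPM in Control, at 46.2, 50.1 and 44.5 CPM in Hyper and at 92.7, 67.6 and 101.4 CPM in RemoLV. It was at 31.6, 34.8, 21.1, 33.4 and 37.6 CPM in DOX and at 43.6, 36.6, 57.3, 53.0 and 33.8 CPM in MYO. All 3 RemoLV libraries exceeded the other 16, whose highest value was 57.3 CPM in MYO 3. CFB, which encodes factor B, was near the limit of detection. It was at 2.61, 0.475 and 1.48 CPM in Control, from 35, 8 and 21 counts, and at 0.412, 0.452 and 0.536 CPM in Hyper. It ranged from 0.336 to 0.811 CPM in DOX, from 0 to 1.11 CPM in MYO and from 0.508 to 1.07 CPM in RemoLV. MYO 5 had 0 counts, which allows up to 0.254 CPM (3 counts, counting error only). Control 1 and 3 lay above every other library, and Control 2 did not.

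SERPING1 and CFI restrain the cascade. SERPING1 encodes the C1 inhibitor and was at 123, 98.9 and 85.1 CPM in Control, at 99.97, 91.4 and 104.7 CPM in Hyper and at 243, 212 and 280.4 CPM in RemoLV. It was at 118, 111, 88.2, 141 and 127 CPM in DOX and at 104, 100.1, 109.9, 121 and 98.3 CPM in MYO. The 16 libraries outside RemoLV lay between 85.1 and 141 CPM, and the lowest RemoLV library was at 212 CPM. CFI encodes factor I, which inactivates C3b and C4b, and was at 8.88, 6.89 and 7.48 CPM in Control, at 7.97, 9.93 and 7.31 CPM in Hyper and at 12.4, 7.16 and 7.84 CPM in RemoLV. It was at 2.12, 11.0, 13.6, 15.8 and 17.2 CPM in DOX and at 9.51, 15.7, 6.98, 17.7 and 6.09 CPM in MYO. DOX 1 was the lowest of all 19 libraries for CFI, the other DOX libraries were above every Control and Hyper library, and MYO was spread on both sides.

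**Figure D1:**
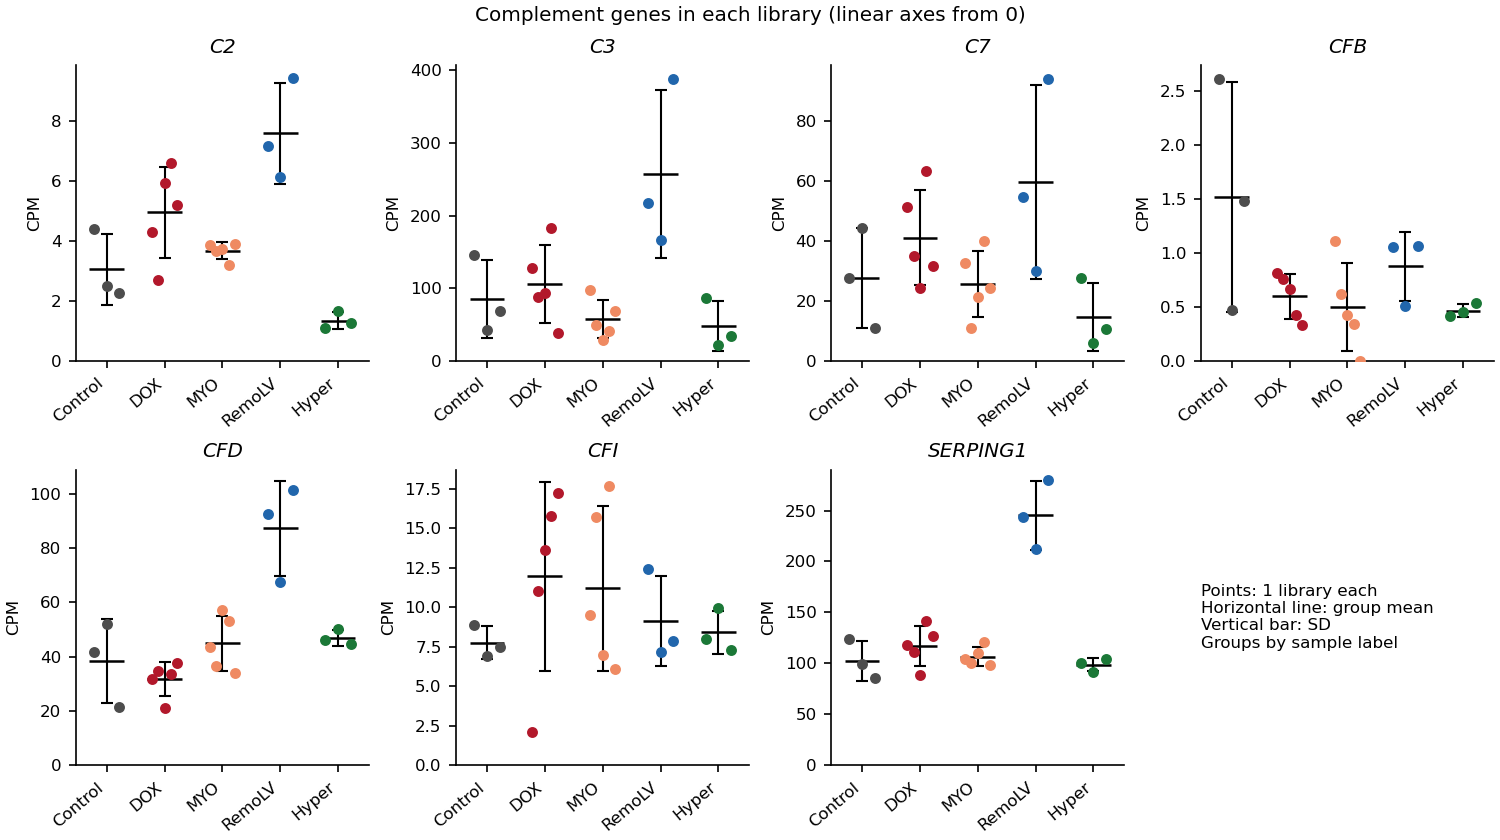
CPM (linear axes) of the 7 genes in each library (points), with group means (horizontal lines) and SD (vertical bars), by sample label. The 3 RemoLV libraries lie above the other 16 for SERPING1 and CFD, the 3 Hyper libraries lie below the other 16 for C2, and CFB stays at or below 2.61 CPM.

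Differences were tested with edgeR's quasi-likelihood test in 1 model of the 5 groups, with Benjamini-Hochberg adjustment over 13552 genes, and a gene was called at an adjusted p of at most 0.05. The comparison of DOX with Control asked whether complement transcripts differ after free doxorubicin. Of the 7 genes 1 was called, C2, while 41.9% of all genes tested were. C2 was higher in DOX, with a mean of 4.95 ± 1.51 CPM (SD, n = 5) against 3.05 ± 1.18 CPM (n = 3), a log2 fold change of 0.71 ± 0.27 (SE, edgeR adjusted p = 0.0449), and DOX and Control overlapped. In the same comparison 6 of 9 macrophage markers were called higher and 1 lower. The 6 include C1QA, C1QB and C1QC, which are complement genes themselves and are described again below. Macrophage sums were 255 to 535 CPM in DOX and 250.9 to 337 CPM in Control. Of 8 fibroblast markers 3 were called higher, and of 7 general cardiomyocyte markers 1 was called higher and 5 lower. Atrial markers summed to between 1083 and 2389 CPM in DOX and 62.0 and 117 CPM in Control, with 2 of 3 called higher. Most of this sum was MYL7, with a mean of 1514 CPM in DOX and 92.8 CPM in Control. MYL4 had a mean of 9.11 CPM in DOX, and SLN overlapped between DOX and Control with a lower mean in DOX. The part of these marker lists in the difference in C2 was not tested. CFB had a log2 fold change of -1.31 ± 0.58 (adjusted p = 0.0758). C3, C7, CFD, CFI and SERPING1 had log2 fold changes between -0.28 and 0.62. The median over the 7 genes was 0.32, against 0.03 over all genes. The call of C2 was lost in 12 of the 19 fits that left out 1 library, namely those without DOX 3, 4 or 5, any MYO library, RemoLV 1, Hyper 3, or Control 2 or 3, where its adjusted p rose to at most 0.201 (without Control 3). It was also lost without a filter on low counts (adjusted p = 0.0605), in a fit of DOX and Control alone (0.133) and without the RemoLV libraries (0.0545). Without DOX 1, CFI was called as well (log2 fold change 0.88, adjusted p = 0.0323), and CFB was called without MYO 5 (adjusted p = 0.0366) and without Control 2 (adjusted p = 0.018).

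Between MYO and Control, the same question for the liposomal drug, CFB was the 1 gene called, against 42.2% of all genes. CFB was lower in MYO, at 0.500 ± 0.408 CPM (SD, n = 5) against 1.52 ± 1.07 CPM (n = 3), a log2 fold change of -1.56 ± 0.59 (SE, edgeR adjusted p = 0.0408). The other 6 genes had log2 fold changes between -0.57 and 0.53, and the median over the 7 genes was 0.06 against 0.02 over all genes. The call of CFB was lost in 6 of 19 fits, those without MYO 2, 3, 4 or 5 or without Control 1 or 3. It was also lost with upper-quartile scaling (adjusted p = 0.0509) and in a fit of MYO and Control alone (0.107). Without Control 1 its log2 fold change was -0.92 (adjusted p = 0.294). Control 1 and 3, in which CFB was high, also had erythroid marker sums of 353 and 340.1 CPM, against 36.4 CPM in Control 2 and at most 198 CPM in the other libraries. Neutrophil markers summed to 10.2, 4.63 and 9.59 CPM in Control 1 to 3, with 3 of 5 called lower in MYO, and acute phase and interferon markers to 354, 225 and 362 CPM. Further lists also differed between MYO and Control, with 5 of 7 general cardiomyocyte markers called lower and 1 higher, 3 of 8 fibroblast markers higher and 1 lower (sums of 4709 to 6738 CPM against 2175 to 3557 CPM) and 2 of 3 atrial markers higher (739 to 1216 CPM against 62.0 to 117 CPM). Most of the atrial sum in MYO was again MYL7, with a mean of 1056 CPM, while MYL4 had a mean of 9.87 CPM. SLN overlapped between MYO and Control with a lower mean in MYO. The part of these marker lists in the difference in CFB was not tested. DOX and MYO were also compared directly. None of the 7 genes was called by edgeR, as was the case for 0% of all genes, nor by DESeq2, and 1 of the 7, CFD, had an unadjusted p under 0.05. CFD had a log2 fold change of -0.50 (95% interval -0.94 to -0.06, adjusted p = 0.71) in DOX against MYO, and C3 one of 0.89 (95% interval -0.13 to 1.91, adjusted p = 0.736).

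Hyper was compared with Control to ask what pressure overload changed. By edgeR 0 of the 7 genes and 0% of all genes were called, 2 of the 7 had an unadjusted p under 0.05, and DESeq2 called 1, C2, beside 2.54% of all genes. C2 was at 1.34 ± 0.28 CPM (SD, n = 3) in Hyper and 3.05 ± 1.18 CPM (n = 3) in Control, a log2 fold change of -1.18 ± 0.33 (SE, adjusted p = 0.132), and CFB had a log2 fold change of -1.67 ± 0.68 (adjusted p = 0.222). Their groups did not overlap for C2 and overlapped for CFB. C3 (-0.84) and C7 (-0.91) had negative log2 fold changes, while those of SERPING1 (-0.05), CFI (0.12) and CFD (0.29) were small. The median over the 7 genes was -0.84, against 0.01 over all genes. Without Control 2, both C2 (log2 fold change -1.31, adjusted p = 0.017) and CFB (-2.11, adjusted p = 0.0335) were called, beside 18.1% of all genes in that fit.

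The mean of DOX and MYO was compared with Hyper, a comparison made of the same libraries under both sets of names. C2 was the 1 gene called of 7, while 32.4% of all genes were. It was higher in DOX and MYO, at 4.31 ± 1.23 CPM (SD, n = 10) against 1.34 ± 0.28 CPM (n = 3), a log2 fold change of 1.67 ± 0.28 (SE, edgeR adjusted p = 0.000225), and each of the 10 libraries exceeded each of the 3. Over the alternatives and the fits that left out 1 library its adjusted p stayed between 4.3e-07 and 0.00365. C7 had a log2 fold change of 1.14 ± 0.53 (adjusted p = 0.108) and was called without Hyper 1 (1.97, adjusted p = 0.0353). The other 5 genes had log2 fold changes between -0.32 and 0.71. Of the 9 macrophage markers 5 were called higher, the complement genes C1QA and C1QC among them, and 1 lower. Macrophage sums were 217.5 to 535 CPM in DOX and MYO and 190.0 to 284 CPM in Hyper. Of 8 fibroblast markers 3 were called higher, beside 32.4% of all genes called in either direction. General cardiomyocyte markers went the other way from C2, 3 of 7 being called lower. Their sums were 27302 to 32638 CPM in DOX and MYO and 33391 to 37131 CPM in Hyper. The Y-chromosome RNA splits the libraries in the same way as this comparison, so that drug treatment cannot be told apart in it from the animals' sex as read from that RNA. The part of the cell type markers in the difference in C2 was not tested. In bulk tissue, a change in the number of cells of a type and a change in RNA per cell cannot be told apart.

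**Figure D2:**
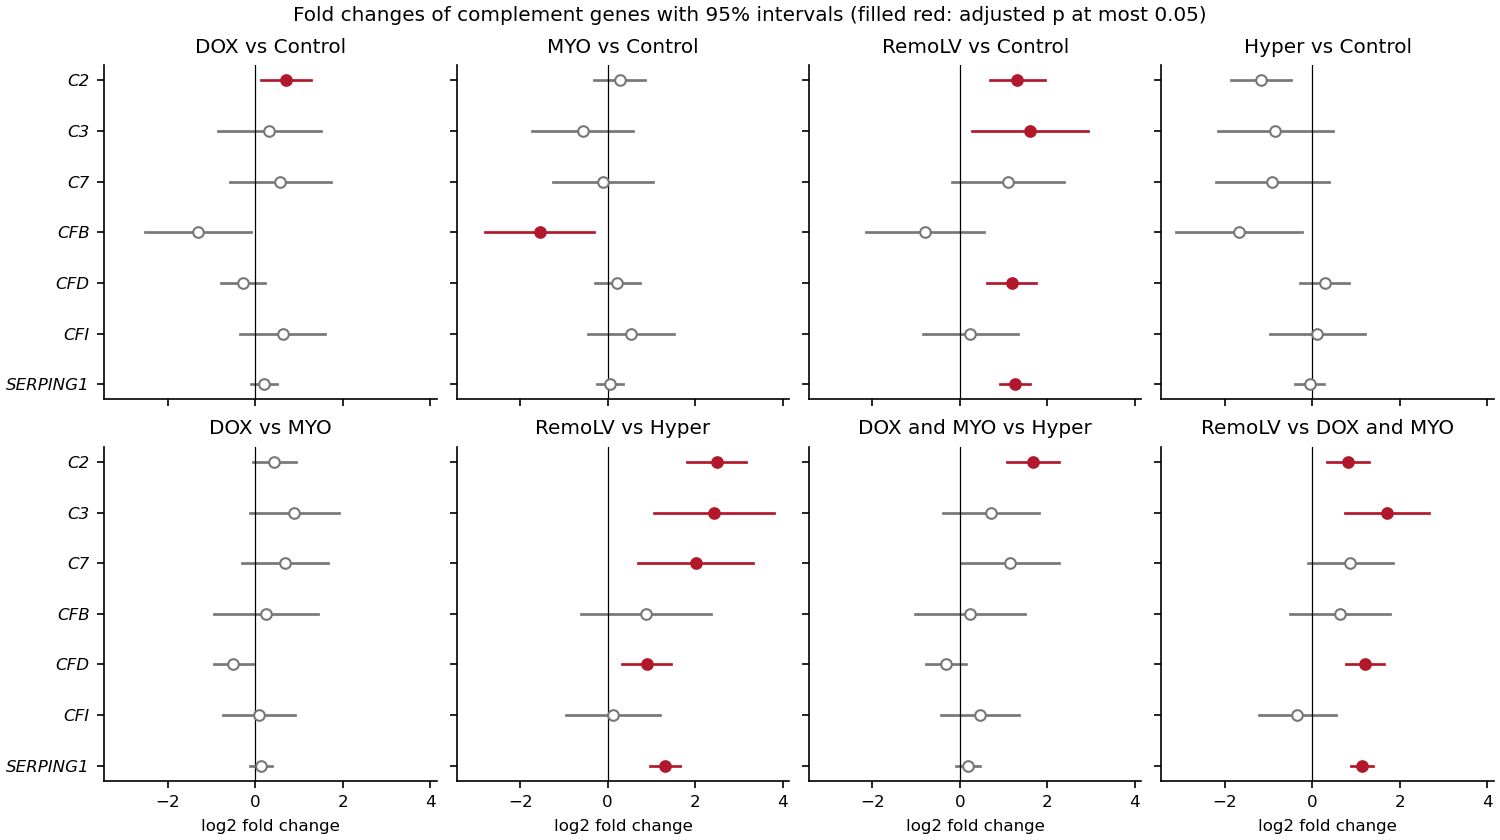
Log2 fold changes (x axis) of the 7 genes in the 8 comparisons by sample label, with 95% intervals (lines). Filled red points mark an edgeR adjusted p of at most 0.05: 4 or 5 genes in each comparison that involves RemoLV, C2 alone in DOX against Control and in DOX and MYO against Hyper, and CFB alone in MYO against Control.

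The libraries labelled RemoLV had the highest levels of most of these genes. Against Control, which by label asks about remote myocardium after infarction, 4 of the 7 genes were called, all higher, while 46.9% of all genes were called in either direction. SERPING1 was at 245.3 ± 34.2 CPM (SD, n = 3) against 102.5 ± 19.4 CPM (n = 3), a log2 fold change of 1.26 ± 0.16 (SE, edgeR adjusted p = 7.19e-06). C2 rose by 1.31 ± 0.30 on the log2 scale (adjusted p = 0.00155), CFD by 1.18 ± 0.27 (adjusted p = 0.00172) and C3 by 1.59 ± 0.63 (adjusted p = 0.0469). C7 had a log2 fold change of 1.10 ± 0.60 (adjusted p = 0.143), CFI one of 0.24 and CFB one of -0.80. The median over the 7 genes was 1.18, against 0.02 over all genes. C2, CFD and SERPING1 stayed called in each of the 19 fits that left out 1 library, and C3 lost its call in 10 of them: those without DOX 2 or 3, MYO 2, 4 or 5, RemoLV 1 or 3, Hyper 3, or Control 2 or 3, the highest adjusted p being 0.178 (without RemoLV 3), and also without a filter on low counts (adjusted p = 0.0804).

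Against Hyper, 5 of the 7 genes were called, all higher in RemoLV, beside 35.4% of all genes. C2 had the largest log2 fold change, 2.49 ± 0.32 (SE, edgeR adjusted p = 1.12e-05), followed by C3 (2.44 ± 0.64, adjusted p = 0.00803) and C7 (2.01 ± 0.62, adjusted p = 0.0192). SERPING1 rose by 1.31 ± 0.16 (adjusted p = 5.66e-06) and CFD by 0.89 ± 0.27 (adjusted p = 0.0149). CFB (0.87) and CFI (0.12) were not called, and the median over the 7 genes was 1.31 against 0.01 over all genes. Without RemoLV 3 the count fell to 3, as CFD (adjusted p = 0.0619) and C7 (adjusted p = 0.0927) were lost. C7 was also lost without Hyper 2 (adjusted p = 0.079) or Hyper 3 (adjusted p = 0.0687), and in a fit of RemoLV and Hyper alone (adjusted p = 0.0644).

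Against the mean of DOX and MYO, a comparison added after seeing the data, 4 of the 7 genes were higher in RemoLV and 33.5% of all genes were called. SERPING1 rose by 1.13 ± 0.12 on the log2 scale (SE, edgeR adjusted p = 8.26e-07), CFD by 1.21 ± 0.20 (adjusted p = 0.000179), C3 by 1.72 ± 0.45 (adjusted p = 0.00822) and C2 by 0.82 ± 0.23 (adjusted p = 0.00875). C7 had a log2 fold change of 0.87 ± 0.46 (adjusted p = 0.155), CFB one of 0.64 and CFI one of -0.34. Without RemoLV 3 the calls of C2 (adjusted p = 0.0913) and C3 (adjusted p = 0.089) were lost, and those of CFD and SERPING1 remained. The comparisons of RemoLV with Control, with Hyper and with DOX and MYO share the RemoLV libraries and are not independent of each other.

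Of the marker lists, the atrial and fibroblast sums were higher in the libraries labelled RemoLV than in the other 16. The sums of the other lists were lower or overlapped. Atrial cardiomyocyte markers, 4 of the 5 listed being found, summed to between 9362 and 12633 CPM in the libraries labelled RemoLV and to between 62.0 and 2389 CPM in the other 16, and ventricular markers, 4 of 4, to between 25019 and 29131 CPM against 44909 to 74431 CPM. Fibroblast markers, 8 of 8, summed to between 10906 and 12565 CPM in RemoLV, 2175 to 3557 CPM in Control, 4709 to 7251 CPM in DOX and MYO and 1646 to 3974 CPM in Hyper. General cardiomyocyte markers, 7 of 7, summed to between 20744 and 22411 CPM in RemoLV and at least 27302 CPM in the other 16 libraries, with 5 of 7 called lower against Control and against Hyper. Of the fibroblast markers in RemoLV, 5 of the 8 were called higher than in Control and 6 of the 8 higher than in Hyper, where 46.9% and 35.4% of all genes were called in either direction. Macrophage markers, 9 of 9, summed to between 325.5 and 330.5 CPM in RemoLV, 250.9 and 337 CPM in Control and 190.0 and 284 CPM in Hyper. Against Control and against Hyper alike, 4 of the 9 were called higher and 1 lower in RemoLV. Those higher include the complement genes C1QA and C1QB in both comparisons, and C1QC against Hyper. The members went different ways, the scavenger receptor CD163 having a mean of 43.3 CPM in RemoLV and 110.9 CPM in Control, and CSF1R one of 59.7 CPM and 33.0 CPM. Adipocyte markers, 6 of 6, summed to between 224 and 341 CPM in RemoLV and 192 to 356 CPM in the other libraries. Of the 5 that could be tested, 1 was called higher and 1 lower in RemoLV against Control, 0 higher and 1 lower against Hyper, and 4 higher and 1 lower against DOX and MYO. The median log2 fold change of these 5 was 1.67 against Control and 1.37 against Hyper. PLIN1 was at 1.96 to 10.4 CPM in RemoLV and at most 3.44 CPM in the other 16 libraries, and CIDEC at 1.83 to 2.48 CPM and at most 1.60 CPM. ADIPOQ was at 10.9 to 77.5 CPM in RemoLV and at most 22.3 CPM in the other 16 libraries, PLIN4 was at 68.9 to 83.3 CPM in RemoLV and 126 to 182 CPM in Control, and FABP4 was at 115 to 182 CPM in RemoLV and 112 to 150 CPM in Control. Endothelial markers, 5 of 5, summed to between 664 and 720 CPM in RemoLV and 729.8 and 1027 CPM in the other 16 libraries, with 2 called lower than in Control and 1 lower than in Hyper. Mesothelial markers, of which 2 of 6 were found, summed to between 3.44 and 7.67 CPM against 9.78 to 33.5 CPM. Acute phase and interferon markers summed to between 188 and 215 CPM in RemoLV and 225 and 362 CPM in Control, with 2 of 6 called lower, and neutrophil markers to between 1.47 and 6.26 CPM and 4.63 and 10.2 CPM, with 3 of 5 called lower. The part of these cells in the differences was not tested. Hepatocyte markers, 7 of 7, summed to between 28.0 and 53.9 CPM in RemoLV and 20.1 and 52.0 CPM in the other libraries. Most of this was APOA1, with a mean of 33.8 CPM in RemoLV and 21.3 CPM in Control, while ALB was at 3.12 to 3.72 CPM and 5.52 to 17.3 CPM. APOB, TTR, FGA and FGG were at 0 in all RemoLV and all MYO libraries, and FGB had a mean of 0.554 CPM in RemoLV.

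**Figure D3:**
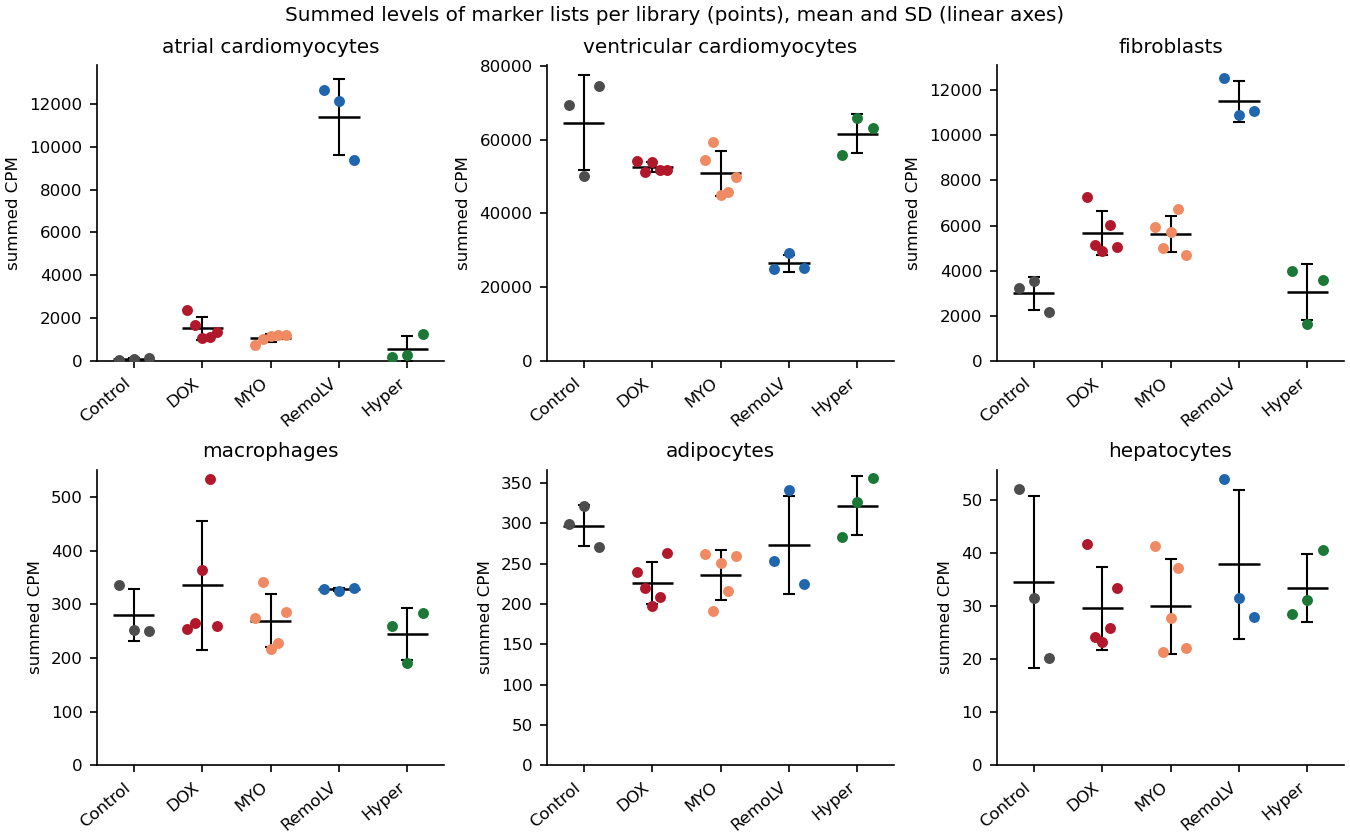
Summed CPM (linear axes from 0) of 6 marker lists in each library (points), with group means and SD, by sample label. The 3 RemoLV libraries stand apart by high atrial and fibroblast sums and low ventricular sums, and the hepatocyte sums overlap between all groups.

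With the names in the authors' table the direction of several differences from Control turned, since the libraries that table calls Control are those labelled RemoLV. In table-named RemoLV against Control, C2 (-1.31), CFD (-1.18), C3 (-1.59) and SERPING1 (-1.26) were lower, and in Hyper against Control 5 genes were lower, C2 by -2.49 (adjusted p = 1.97e-05), C3 by -2.44 (adjusted p = 0.00218), C7 by -2.01 (adjusted p = 0.0188), SERPING1 by -1.31 (adjusted p = 8.08e-06) and CFD by -0.89 (adjusted p = 0.02). In MYO against Control C2, CFD, C3 and SERPING1 were lower, and in DOX against Control CFD and SERPING1 were lower. Under these names 47% of all genes were called in RemoLV against Control, 35.6% in Hyper against Control, 28.9% in MYO against Control and 29.4% in DOX against Control. C2 in DOX and MYO against Hyper was called under both sets of names, with log2 fold changes of 1.67 and 1.68. No member was called between DOX and MYO under either, and C3 then had a log2 fold change of 1.38 ± 0.40 (SE, edgeR adjusted p = 0.471).

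**Figure D4:**
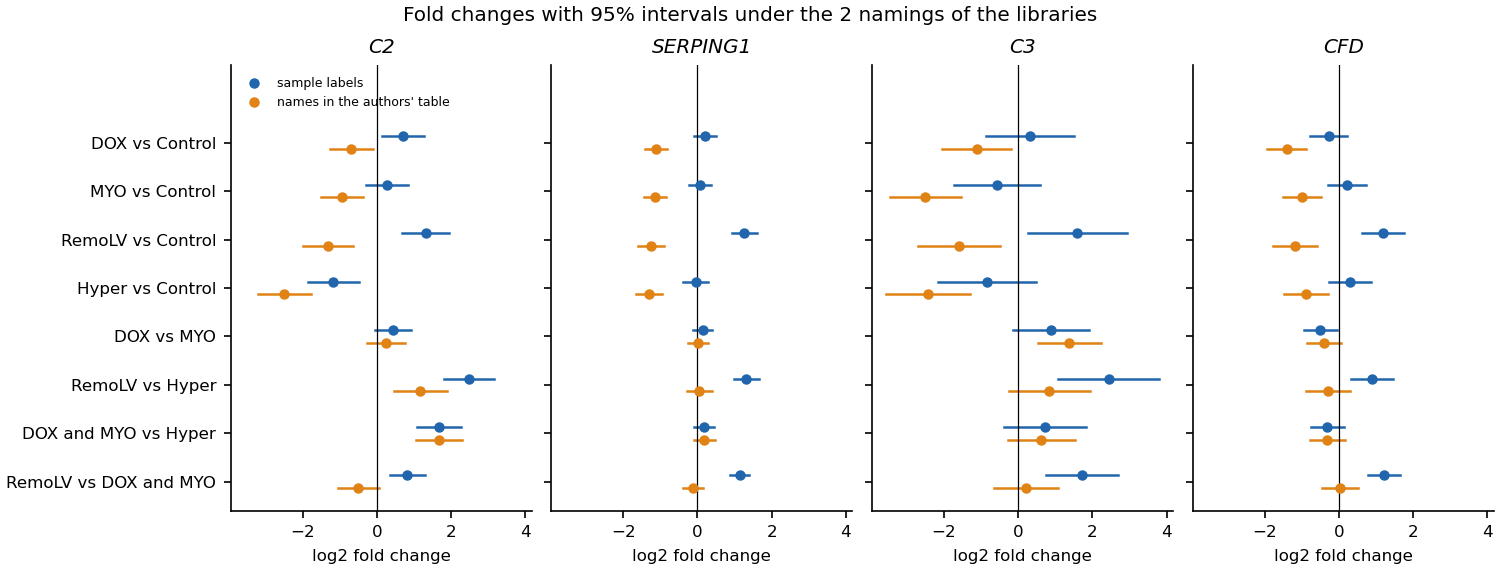
Log2 fold changes (x axis) with 95% intervals of C2, SERPING1, C3 and CFD in the 8 comparisons, by sample labels (blue) and by the names in the authors' table (orange). In RemoLV against Control all 4 genes change sign, and in DOX and MYO against Hyper the values nearly coincide.

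Other genes of the cascade were described from a list of 48, of which 28 were found by symbol and 27 passed the filter. Of these 27, edgeR called 7 higher and 3 lower in DOX, 2 higher and 3 lower in MYO and, in RemoLV, 8 higher with 5 lower, each against Control. Against Control, Hyper had 0 calls, with 5 genes at an unadjusted p under 0.05. In RemoLV against Hyper 10 were higher and 2 lower, in DOX and MYO against Hyper 5 were higher and 2 lower, in RemoLV against DOX and MYO 3 were higher and 3 lower, and between DOX and MYO 0 were called, with 2 at an unadjusted p under 0.05. The share of the 27 genes called was 37% in DOX, 18.5% in MYO and 48.1% in RemoLV against Control, beside 41.9%, 42.2% and 46.9% of all genes. It was 44.4% in RemoLV against Hyper, 25.9% in DOX and MYO against Hyper and 22.2% in RemoLV against DOX and MYO, beside 35.4%, 32.4% and 33.5% of all genes. These shares were below those of all genes except in RemoLV against Control and against Hyper. With the table's names, 1 of the 27 was higher and 2 lower in DOX, 2 higher and 4 lower in MYO, 5 higher and 9 lower in RemoLV and 2 higher and 9 lower in Hyper, each against Control, so that directions of single genes against Control hold for the sample labels. The median log2 fold change in RemoLV was 0.32 against Control and 0.46 against Hyper, with medians of 0.02 and 0.01 over all genes.

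Among recognition molecules, C1QA and C1QB encode chains of C1q, which macrophages make, and were higher in RemoLV than in Control and than in Hyper, in the latter case by 1.33 (edgeR adjusted p = 0.00234) and 1.02 (adjusted p = 0.0108) on the log2 scale. C1QC, a further chain, was higher in RemoLV than in Hyper (0.89, adjusted p = 0.0168) and was not called against Control (0.60, adjusted p = 0.0768). These C1q genes are also on the macrophage marker list. C1QA (adjusted p = 0.0459), C1QB (0.0277) and C1QC (0.0481) were also higher in DOX than in Control, and C1QA (0.00999) and C1QC (0.0264) in DOX and MYO than in Hyper. C1QA was at 53.9, 53.7 and 41.7 CPM in RemoLV and at 20.0, 15.3 and 24.2 CPM in Hyper. COLEC12, a scavenger receptor with a collectin domain, was higher in RemoLV than in Control (1.31, adjusted p = 0.000512), Hyper and DOX and MYO, and all RemoLV libraries exceeded the other 16, at 35.6 to 50.1 CPM against at most 26.7. Of the components, C4A, which C1s cuts, was at 25.3, 15.5 and 23.9 CPM in RemoLV and 5.77, 3.69 and 4.76 CPM in Hyper (log2 fold change 2.18, adjusted p = 0.00164), and was also higher in DOX and MYO than in Hyper (1.41, adjusted p = 0.0131). C5 was low, at 1.27, 1.92 and 2.23 CPM in RemoLV and at most 0.677 CPM elsewhere (log2 fold change against Control 2.82, adjusted p = 0.00232). The lectin pathway protease MASP2 was at 19.5, 0.831 and 29.6 CPM in Control 1 to 3 and at most 3.01 CPM in the other 16 libraries. Its lower level in RemoLV, DOX and MYO than in Control, with log2 fold changes between -5.02 and -3.35, rests on Control 1 and 3, the libraries with high erythroid marker sums.

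Regulators went in both directions. The soluble regulator C4BPA, the C4b-binding protein, was at 107.0, 87.2 and 79.5 CPM in RemoLV and 21.3, 54.7 and 15.9 CPM in Control (log2 fold change 1.57, adjusted p = 0.0152). Clusterin (CLU), which binds the forming pore, was lower in RemoLV, at 97.2, 70.7 and 223 CPM, than in Control, at 1199.5, 388.7 and 1281 CPM (-2.88, adjusted p = 0.017), and DOX 4 (87.3 CPM), MYO 1 (170 CPM) and MYO 4 (125 CPM) lay within the range of RemoLV. A2M, a broad protease inhibitor, was lower in DOX and MYO than in Hyper (-1.31, adjusted p = 0.0209). On membranes, CD46, a cofactor for factor I, was at 170, 75.4 and 219 CPM in Control and between 62.5 and 101 CPM in the other libraries, so that its log2 fold change in MYO against Control (-1.09, adjusted p = 0.000821) again rests on Control 1 and 3. CD55, which speeds the decay of convertases, and SUSD4 were higher in RemoLV than in Hyper, by 1.04 (adjusted p = 0.0181) and 1.17 (adjusted p = 0.0364). ITGB2, the beta chain of complement receptor 3 on leukocytes, was higher than in Control in DOX (1.57, adjusted p = 0.000116), MYO (1.22, adjusted p = 0.000865) and RemoLV (1.01, adjusted p = 0.00489), and all of these libraries, at 13.9 to 35.5 CPM, exceeded Control, at 7.19 to 8.43 CPM.

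**Figure D5:**
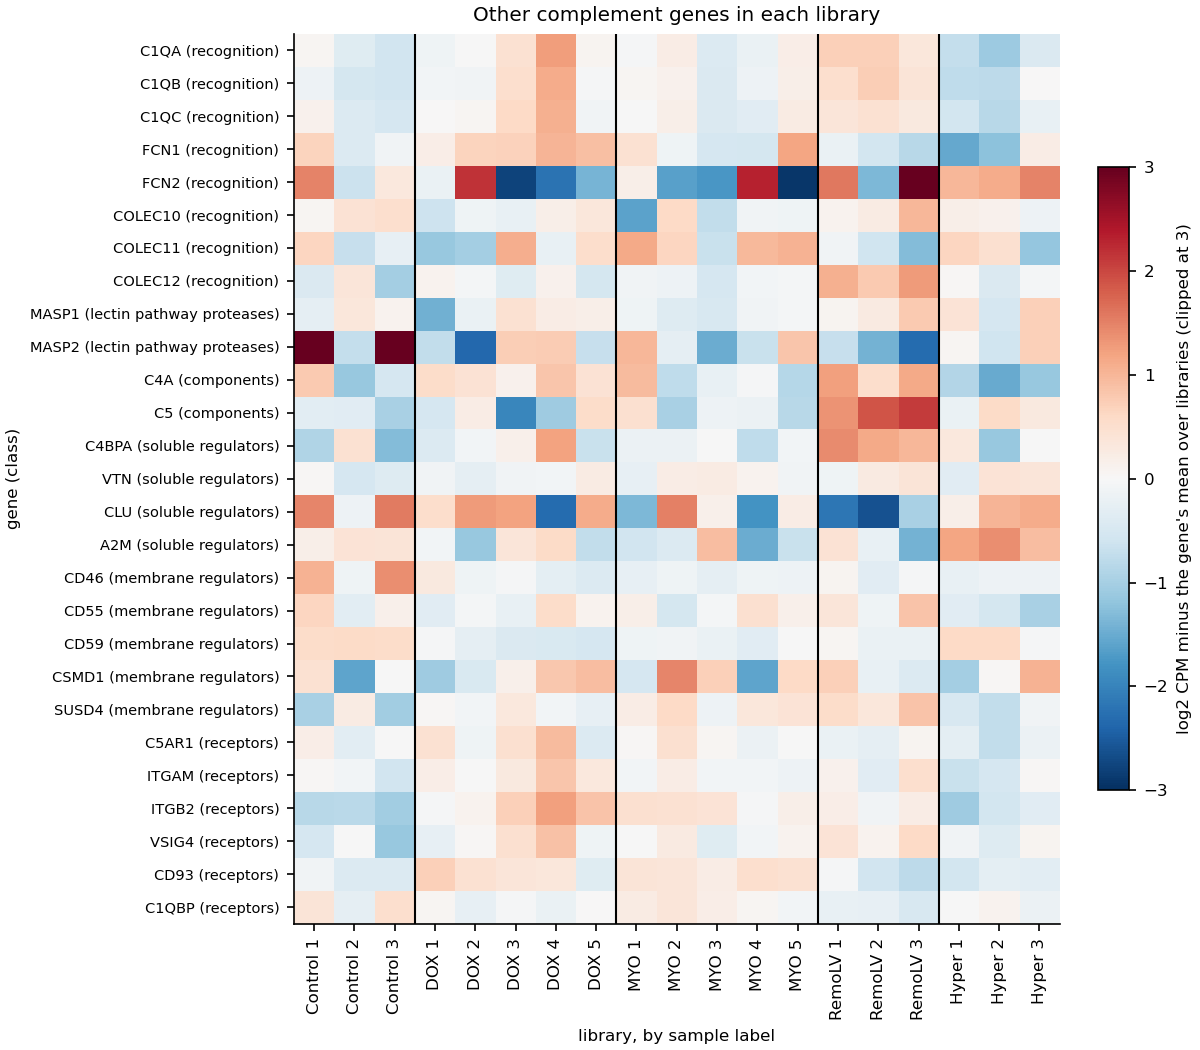
Log2 CPM of the 27 other complement genes (rows, with their class) in each library (columns, grouped by sample label), as the difference from each gene's mean over the 19 libraries, clipped at 3. COLEC12, C5 and C4BPA are high in all 3 RemoLV libraries, and MASP2 and CD46 are high in Control 1 and 3 and not in Control 2.

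Genes most like each member across the 19 libraries were found by Pearson correlation of log2 CPM, as a description in which the points share the group structure. For SERPING1 the nearest genes were CNTFR (r = 0.96), DPP10 (r = 0.94) and LTBP1 (r = 0.94), with 0.76, 0.67 and 0.53 over the 16 libraries without RemoLV. For CFD they were NXPH2 (0.89), PDGFRL (0.88) and SLIT1 (0.88), with 0.73, 0.71 and 0.71 without RemoLV. For C3 they were MAN1A1 (0.86), PTPN13 (0.85) and PLSCR4 (0.85), with 0.77, 0.75 and 0.71. For C2 they were TLE3 (0.90), ESM1 (0.88) and ATP8B2 (0.86), with values of 0.87, 0.84 and 0.81 without RemoLV. For C7 they were VCAN (0.81), COL21A1 (0.80) and IGSF10 (0.79), 3 genes of the extracellular matrix, with 0.81, 0.81 and 0.73 without RemoLV. For CFB they were KCNC4 (0.78), PRG4 (0.77) and EXOC6B (0.76), with 0.82, 0.77 and 0.77, and for CFI ZNF655 (0.80), ZNF782 (0.77) and CEL (0.77), with 0.81, 0.77 and 0.82 without RemoLV. The neighbours were chosen over all 19 libraries, RemoLV included. Among the members, the highest of the 21 pairwise correlations over 19 libraries was that of CFD with SERPING1 (r = 0.77), followed by C3 with SERPING1 (0.72) and C3 with C7 (0.71). Over the 10 DOX and MYO libraries alone, CFD with SERPING1 had r = 0.36 and C3 with SERPING1 r = 0.14, while C7 with SERPING1 had r = 0.69 (Spearman rho 0.71) and CFD with C3 had r = -0.60 (rho -0.71).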

How the data were processed

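Bulk RNA-seq of LV tissue from 19 pigs was analysed, with 1 library per pig. The deposited values are read counts per gene, which the authors made by aligning reads to Sscrofa11.1 with STAR and counting them on Ensembl gene models with HTSeq 0.11.1 in union mode with reverse-stranded settings. The authors' table, which holds log2-scale expression values from DESeq2 beside fold changes and p-values of their own comparisons, was used only for gene symbols and for matching its sample columns to the count files. No per-sample column was left out (0 columns). The 9 genes and all other lists were chosen with earlier results of these data known.

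Counts were summed to library totals of 9527710 to 20370209. Genes were filtered with filterByExpr by group, scaled with TMM and tested with edgeR 4.0.16 (robust quasi-likelihood fit, R 4.3.3) in 1 model of 5 groups over 19 libraries, with Benjamini-Hochberg adjustment over 13552 of 25879 genes and a call at an adjusted p of at most 0.05. Intervals are 95% intervals of the fit. The p-values set each difference against the spread between pigs within groups, estimated over all 5 groups and moderated across genes. Log2 CPM for correlations used a prior count of 2. Scripts were tested on simulated counts. Alternatives were DESeq2 1.42.0, upper-quartile scaling, other filters (none, or at least 10 counts in every library), fits of the compared groups alone or without RemoLV, a replicate block, the table's sample names, an added log2 fold change threshold of 2 and leaving out each library. The comparison of RemoLV with DOX and MYO, and a fit without DOX 5 and MYO 1, were added after seeing the data. No 2 libraries held the same counts within sampling noise. Named were all members, the 3 genes most correlated with each, and, of the other complement genes, those called in any comparison with a log2 fold change of 1 or more in size. C1QC did not reach this size and was named beside C1QA and C1QB. Sequences and positions were read from the RefSeq genome and annotation of Sscrofa11.1 with pysam 0.24.0.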

Additional observations from a re-analysis of the deposited data

Results flagged for a closer look

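In the DOX and MYO groups, the only ones with more than 3 libraries, 70 sets of values were tested for a library far from the others by Dixon's criterion, which chance meets in about 1 of 20 sets, and 7 met it. None was a level of C2, C3, C7, CFB, CFD, CFI or SERPING1. COLEC12 was at 14.5 CPM in MYO 3, below the nearest MYO library at 18.6 CPM. C4BPA was at 92.1 CPM in DOX 4, above the nearest DOX library at 44.1 CPM, and at 23.2 CPM in MYO 4, below the nearest MYO library at 35.0 CPM. A2M was at 79.6 CPM in MYO 3 and at 31.1 CPM in the next MYO library. The smooth muscle markers summed to 704 CPM in DOX 1 and 314 CPM in the next DOX library, and the acute phase and interferon markers to 304 CPM in MYO 5 and 240.4 CPM in the nearest MYO library. Genes of the Y chromosome summed to 226 CPM in DOX 1 and 169 CPM in the next DOX library.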

How the results depend on the processing

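Of the member counts, that of DOX against MYO stayed at 0 under each alternative run. With an added log2 fold change of at least 2 the counts became 0 in DOX against Control, MYO against Control, RemoLV against Control, DOX and MYO against Hyper and RemoLV against DOX and MYO, and 3 in RemoLV against Hyper. The count in DOX against Control was 0 without a filter, in a fit of the compared groups alone, without RemoLV, with the replicate block and without the exchanged libraries DOX 5 and MYO 1 (C2 adjusted p = 0.076). The count in MYO against Control was 0 with upper-quartile scaling, with at least 10 counts in every library (where CFB was not tested), in a fit of the compared groups alone and with the replicate block, and DESeq2 called 1 gene, C2, in Hyper against Control (log2 fold change -1.19, adjusted p = 0.0409, beside 2.54% of all genes). With the table's names the counts were 2 in DOX against Control, 4 in MYO against Control, 5 in Hyper against Control, 0 in RemoLV against Hyper and 1 in RemoLV against DOX and MYO (CFB, 1.53, adjusted p = 0.0112). Of all genes, 29.4%, 28.9%, 35.6%, 0% and 47% were then called in these comparisons. The cause was not tested, except that the table's names exchange the libraries.

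With the table's names these log2 fold changes turned. In DOX against Control they were -0.68 for C2, -1.12 for C3, -0.52 for C7 and -1.12 for SERPING1, and in MYO against Control -0.94 for C2, -0.997 for CFD and -1.14 for SERPING1. In RemoLV against Control they were -1.31 for C2, 0.80 for CFB, -1.18 for CFD, -1.59 for C3, -1.10 for C7, -1.26 for SERPING1 and -0.24 for CFI. In Hyper against Control they were -0.89 for CFD and -0.12 for CFI, in DOX against MYO -0.29 for CFI, in RemoLV against Hyper -0.29 for CFD and -0.12 for CFI, and in RemoLV against DOX and MYO -0.50 for C2, -0.23 for C7 and -0.13 for SERPING1. Without DOX 5 and MYO 1, CFI in DOX against MYO was at -0.13.

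Leaving out 1 library at a time, the counts ranged from 0 to 2 in DOX against Control, 0 to 1 in MYO against Control, 3 to 4 in RemoLV against Control, 0 to 2 in Hyper against Control, 3 to 5 in RemoLV against Hyper, 1 to 2 in DOX and MYO against Hyper and 2 to 4 in RemoLV against DOX and MYO. Values near 0 changed sign. In DOX against Control, CFD ranged from -0.56 to 0.00054 and C3 from -0.011 to 0.95. In MYO against Control, CFD ranged from -0.063 to 0.50, C3 from -0.90 to 0.057, C7 from -0.49 to 0.41 and SERPING1 from -0.059 to 0.21. CFI ranged from -0.048 to 0.39 in RemoLV against Control, from -0.019 to 0.22 in Hyper against Control, from -0.075 to 0.36 in DOX against MYO and from -0.17 to 0.27 in RemoLV against Hyper. SERPING1 ranged from -0.17 to 0.10 in Hyper against Control, and CFB from -0.053 to 0.74 in DOX against MYO and from -0.0068 to 0.39 in DOX and MYO against Hyper.

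Same-numbered libraries of different groups did not deviate together (median correlation 0.0069 over 32 pairs, against 0.0008 over 110 other pairs), so that the replicate numbers are only names. With the replicate block, C2 in DOX against Control had a log2 fold change of 0.60 (adjusted p = 0.143), CFB in MYO against Control one of -1.12 (adjusted p = 0.108) and SERPING1 in MYO against Control one of -0.019 (adjusted p = 0.931), and no other call of a member changed. Depth limits CFB most, with 0 to 35 counts per library.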
